A study of Rattus norvegicus with 4 samples.

Results

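Collagen chain genes encode the alpha chains from which collagens, the main structural proteins of the extracellular matrix, are built. They were taken as all probe sets whose annotation gave exactly 1 gene symbol made of Col, a type number, the letter a and a chain number. Of 31099 probe sets on the array, 58 met this rule. They represented 41 of the 14217 genes that were named by a single symbol, and each gene was read by its brightest probe set, chosen on the mean over all arrays.

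The RNA came from primary granulosa cells, which surround the oocyte and make estrogen, of female Sprague-Dawley rats aged 23 to 25 days that had been treated with estradiol. The cells were kept without serum in wells precoated with 1% serum. All of them carried an adenovirus, applied for 4 h, and were then cultured for 24 h. GFP vehicle cells received a vector for green fluorescent protein and no hormone, and GFP FSH cells received the same vector and follicle-stimulating hormone (FSH) at 100 ng/ml. FOXOA3 FSH cells received the hormone and a constitutively active FOXO1, a forkhead transcription factor. FOXOA3-mDBD FSH cells received the hormone and a form of FOXOA3 mutated in its DNA-binding domain. Each of the 4 groups was measured on 1 array. Where all 4 signals of a gene are given, these arrays are called the vehicle, FSH, FOXOA3 and mutant arrays, in that order. The number of animals or wells behind each array is not given in the sources used here. No difference below has a replicate check, no p-value was computed, and folds describe these arrays.

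Collagen molecules are trimers of alpha chains wound around each other, and the type is defined by the chains that join. Fibrillar types (I, II, III, V and XI) assemble into banded fibrils, type IV forms the network of basement membranes, and the FACIT collagens (fibril-associated collagens with interrupted helices, such as types XII, XIV and XVI) sit on fibril surfaces. In the ovary, granulosa cells lie on the basal lamina of the follicle, while fibrillar collagens are best known from the theca and stroma outside it.

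Signals were on the linear scale of MAS5, the array maker's algorithm, and were floored at 100.5, the median over all probe sets that were not controls. Dimmer signals were raised to this floor, so that folds against them are bounds, marked by "at least". A bound under 2-fold does not show that a gene was within 2-fold. A comparison took in the genes whose brighter signal exceeded the floor, and a gene was called higher or lower where its signals were 2-fold or more apart. Because probe sets differ in their response, signals are compared between arrays and never between genes.

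Some properties of the arrays bear on every comparison. Poly-A spike transcripts, bacterial RNAs added before labelling, were bright on GFP FSH, with a geometric mean signal of 394.6, and on the mutant array, with 539.4. They were dim on GFP vehicle, with 21.4, and on FOXOA3 FSH, with 22.6. Arrays of the same spike level are thus compared where the mutant is set against GFP FSH, or FOXOA3 FSH against GFP vehicle, and in no other comparison. The 3' to 5' signal ratio of beta-actin was 5.15, 12.0, 9.79 and 10.7 on the vehicle, FSH, FOXOA3 and mutant arrays. GFP vehicle and FOXOA3 FSH, alike in spike level, thus differed in this ratio. That of GAPDH was 2.32, 2.46, 2.84 and 3.15 on the same arrays, lowest on GFP vehicle and highest on the mutant array. Hybridisation controls had geometric mean signals of 1647, 2759, 1224 and 2855. The part of any of these measures in the results was not tested. Foxo1 had signals of 8149, 2862, 3834.5 and 960.9 on the vehicle, FSH, FOXOA3 and mutant arrays. Whether its probe set reads the transgenes is not given in the sources used here, and its signals do not check the vectors.

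Of the 41 collagen genes, 20 had a signal above the floor on at least 1 array and 8 on all 4. Among all genes these shares were 73.2% and 57.1%. The other 21 lay between 1.2 and 98.2 on every array and are not ranked. They included Col1a1, the major chain of type I collagen, with signals of 77.7 on the vehicle array, 50.1 on the FSH array, 94.3 on the FOXOA3 array and 55.2 on the mutant array. All 6 beaded-filament genes (Col6a1, Col6a2, Col6a3, Col6a5, Col6a6 and Col26a1) were under the floor, as were the cartilage genes Col2a1, Col10a1 and Col11a2, the type IX chains Col9a1, Col9a2 and Col9a3, and Col7a1 of anchoring fibrils. The remaining dim genes were Col4a6, Col5a3, Col8a2, Col13a1, Col17a1, Col19a1 and Col20a1. A signal under the floor is not evidence that a gene was silent.

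**Figure D1:**
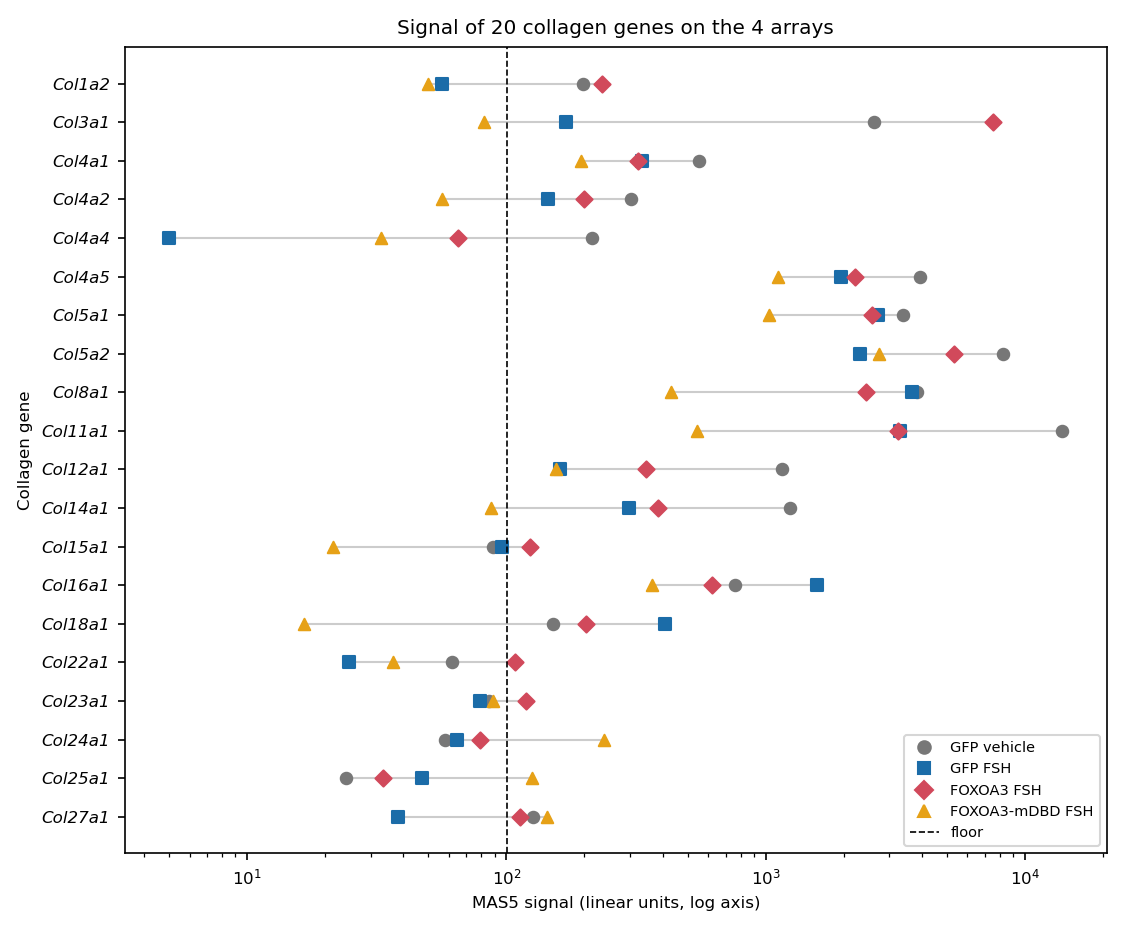
Signals of the 20 collagen genes above the floor on at least 1 array. The x axis is the MAS5 signal on a log scale, each symbol is 1 array, grey lines span the range of a gene and the dashed line is the floor of 100.5. Col3a1 spans 82.0 to 7556, and 10 of the 20 genes have their highest signal on GFP vehicle.

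Across the 20 genes, the highest signal was on GFP vehicle for 10, on FOXOA3 FSH for 5, on FOXOA3-mDBD FSH for 3 and on GFP FSH for 2. Among all 10407 genes above the floor on at least 1 array, these shares were 24.0%, 21.8%, 26.9% and 27.3% in that order. The lowest signal was on FOXOA3-mDBD FSH for 13, on GFP FSH for 5, on GFP vehicle for 2 and on FOXOA3 FSH for 0 of the 20, against 42.6%, 23.0%, 20.8% and 13.6% of all genes. These positions use signals before flooring, so that for dim genes they carry little weight. Col4a1, Col4a2, Col4a5, Col5a1, Col8a1, Col11a1, Col12a1 and Col14a1 were highest on GFP vehicle and lowest on FOXOA3-mDBD FSH. This order, singled out after the values were seen, held for 8 of 20 collagen genes and for 16.4% of all genes. It is read from the brightest probe sets, and another probe set of Col4a1 was lowest on FOXOA3 FSH.

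The hormone response under the control vector is read from GFP FSH against GFP vehicle. With FSH, 8 of the 15 measured collagen genes were at least 2-fold lower and 2 were higher, against 11.1% lower and 6.84% higher among 9578 genes. The median log2 ratio of the collagen genes was -1.02 and that of all genes 0.00. The lower genes were Col3a1, Col12a1, Col11a1, Col14a1, Col5a2, Col4a2, Col4a5 and Col4a4, and the higher ones Col16a1 and Col18a1.

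Col3a1, which forms the homotrimer of type III collagen in extensible tissues, had signals of 2607 on the vehicle array, 170.0 on the FSH array, 7556 on the FOXOA3 array and 82.0 on the mutant array. It was thus high on GFP vehicle and FOXOA3 FSH and near or under the floor on the other arrays. It was 15.3-fold lower with FSH, the lowest ratio among the collagen genes above the floor on both arrays, while Col4a4 is known only as a bound. Among the 8641 genes above the floor on both arrays it stood at place 10 from the lowest ratio.

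Col11a1 encodes a chain that is incorporated in the core of thin fibrils and can also trimerise with type V chains. Its signals were 13943 on the vehicle array, 3299 on the FSH array, 3247 on the FOXOA3 array and 544.3 on the mutant array. The GFP FSH and FOXOA3 FSH arrays gave nearly the same value, 4.23-fold and 4.29-fold below GFP vehicle. Col5a2, a chain of the type V collagen that nucleates fibrils, had signals of 8210.5, 2306, 5324 and 2734 on the vehicle, FSH, FOXOA3 and mutant arrays, and was 3.56-fold lower with FSH. Its partner chain Col5a1 had signals of 3371.5, 2704, 2575 and 1027 on these arrays, and differed by 1.25-fold with the hormone. Of the 6 fibrillar genes measured here, with Col27a1 counted in this class, 3 were lower and 0 higher.

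Of the 3 FACIT genes measured with FSH, 2 were lower and 1 was higher. Col12a1 had signals of 1158 on the vehicle array, 160.2 on the FSH array, 346.2 on the FOXOA3 array and 154.8 on the mutant array, and was 7.23-fold lower with FSH. Its other probe sets were under the floor on every array, and the mean over probe sets gave a log2 ratio of -0.95, under 2-fold, which left 7 collagen genes lower. Probe sets under the floor on both arrays count as unchanged in that mean, so this smaller ratio was fixed in advance. Col14a1 stood at 1239, 295.8, 384.1 and 87.5 on the same arrays and was 4.19-fold lower. Both were highest without the hormone. Col16a1, whose product binds fibril and cell surfaces, ran the other way with 763.5, 1579, 622.6 and 363.4, and was highest on the FSH array, 2.07-fold above GFP vehicle. So was Col18a1, a basement membrane proteoglycan core that holds the endostatin fragment. Its signals were 151.5, 410.4, 203.2 and 16.6, a 2.71-fold higher value with FSH. Another probe set of Col18a1 read 76.9 without and 116.0 with the hormone, and the mean over probe sets gave a log2 ratio of 0.82, under 2-fold.

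Among the 5 network collagens, 3 were lower and 0 higher with FSH, 2 of them close to the threshold and the third known as a bound. Col4a5, a type IV chain, had signals of 3937, 1945, 2201.5 and 1120 on the vehicle, FSH, FOXOA3 and mutant arrays, and was 2.02-fold lower. Col4a2 stood at 302.5 on the vehicle array, 144.0 on the FSH array and 56.6 on the mutant array, with FOXOA3 FSH between the first pair, and was 2.10-fold lower. Under quantile normalization its log2 ratio with FSH was -0.85, within 2-fold. Its partner Col4a1, at 554.7, 334.4, 321.4 and 193.9, was 1.66-fold lower and thus within the threshold. By their brightest probe sets, these 3 genes were highest on the vehicle array and lowest on the mutant array. Another probe set of Col4a1 read 318.2, 223.7, 177.3 and 200.3 on the same arrays, lowest on FOXOA3 FSH. Col4a4 had signals of 213.0, 5.0, 65.2 and 32.8, above the floor on GFP vehicle alone, and is given as at least 2.12-fold lower in each comparison with that array. Col8a1, a short-chain collagen of subendothelial matrix, had signals of 3834, 3658, 2428 and 432.5. It differed by 1.05-fold with FSH and was low on the mutant array alone.

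**Figure D2:**
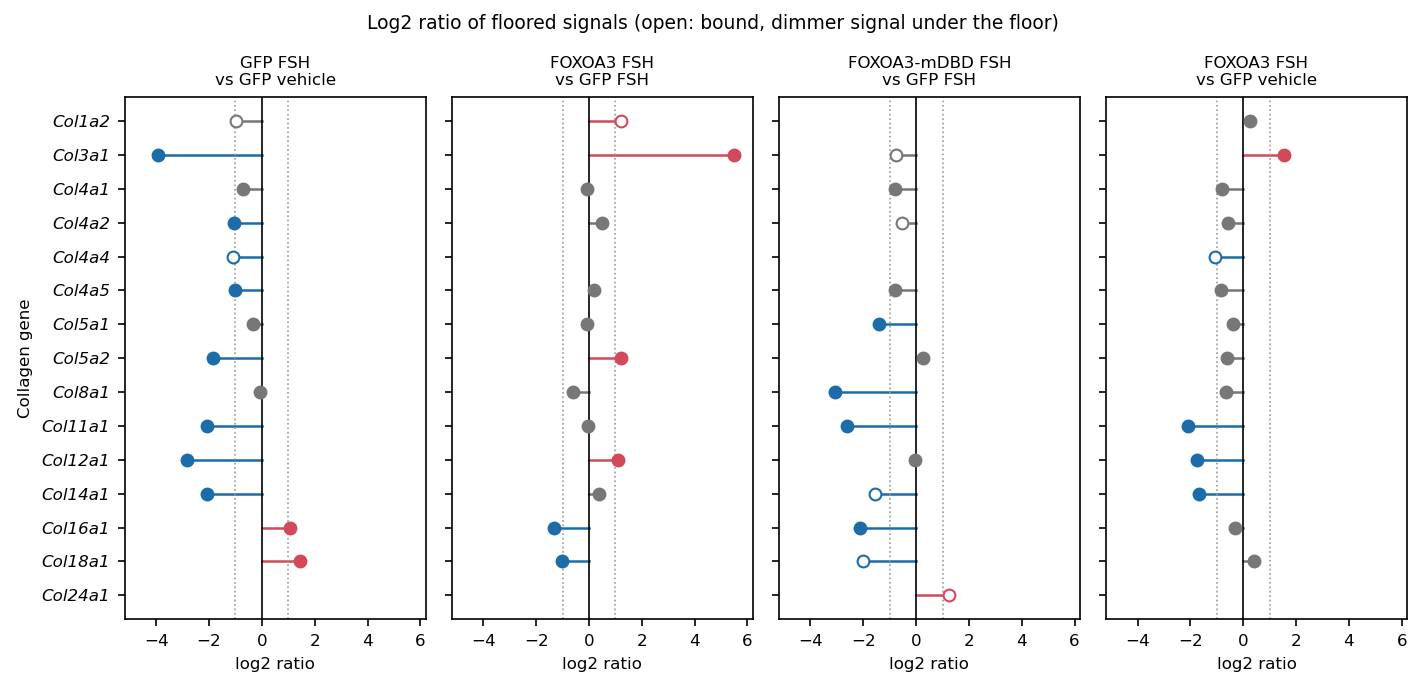
Log2 ratios of floored signals for the 15 collagen genes that differed 2-fold in at least 1 of the 6 comparisons, in 4 of those comparisons. Red marks a fold of 2 or more upward, blue downward, grey a ratio under 2-fold, and open circles are bounds because the dimmer signal was under the floor. The Col3a1 ratio is -3.94 with FSH and 5.47 for FOXOA3 FSH against GFP FSH.

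The effect of active FOXO1 in hormone-treated cells is read from FOXOA3 FSH against the GFP FSH array, which also serves in the comparison above. Of 17 measured collagen genes, 4 were at least 2-fold higher and 2 lower, against 11.1% and 6.99% of 9941 genes. The median was 0.18, close to 0.04 for all genes. The higher genes were Col3a1, Col1a2, Col5a2 and Col12a1, and the lower ones Col16a1 and Col18a1.

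Col3a1 was 44.4-fold higher with FOXOA3. This was the highest ratio of the 8744 genes above the floor on both arrays. Among all 9941 measured genes the highest log2 ratio was 6.29, a bound, against 5.47 for Col3a1. Col3a1 kept place 1 under quantile normalization and the mean over probe sets, and took place 4 with the floor at the 25th percentile. Because it has 1 probe set, the mean over probe sets could change only the ratios of other genes. Median centring shifts all ratios alike and cannot change a place. The FOXOA3 FSH signal of Col3a1 was also 2.90-fold above GFP vehicle, a comparison without the GFP FSH array and between arrays of the same spike level. In that comparison Col3a1 was the single collagen gene of 18 measured that was 2-fold higher. Among all genes 5.32% were higher there.

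Of the other 3, Col1a2, the minor chain of type I collagen, had signals of 196.6 on the vehicle array, 56.5 on the FSH array, 234.0 on the FOXOA3 array and 49.9 on the mutant array. It was above the floor on GFP vehicle and FOXOA3 FSH alone, and at least 2.33-fold higher with FOXOA3. Another probe set of Col1a2 read 80.2 on GFP FSH and 81.6 on FOXOA3 FSH, both under the floor. Col5a2 was 2.31-fold higher and Col12a1 2.16-fold higher. Against GFP vehicle, Col5a2 was 1.54-fold lower and Col12a1 3.34-fold lower on FOXOA3 FSH, so that neither reached the signal of cells without hormone. With the mean over the probe sets of a gene, Col3a1 and Col5a2 alone kept a fold of 2 upward and Col16a1 alone downward, and with the floor at the 75th percentile 2 genes were higher and 1 lower. Under quantile normalization Col12a1 was within 2-fold, at a log2 ratio of 0.85.

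Col16a1 was 2.54-fold lower on FOXOA3 FSH than on GFP FSH, and Col18a1 2.02-fold lower. Both were within 2-fold of GFP vehicle on the FOXOA3 FSH array, at 1.23-fold lower and 1.34-fold higher. Other genes had close signals on FOXOA3 FSH and GFP FSH. Col11a1 differed by 1.02-fold, Col4a1 by 1.04-fold, Col5a1 by 1.05-fold and Col4a5 by 1.13-fold. Against GFP vehicle, Col11a1, Col12a1, Col14a1 and Col4a4 were the 4 of 18 measured genes that were 2-fold lower on FOXOA3 FSH, where 4.01% of 9904 genes were. The mean over probe sets put Col12a1 at a log2 ratio of -0.58 and Col14a1 at -0.98, under 2-fold, which left 2 genes lower.

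The form mutated in its DNA-binding domain was set against the same GFP FSH array, at the same spike level. Of 15 measured collagen genes, 6 were at least 2-fold lower and 1 was higher, against 19.1% and 12.5% of 9748 genes. The median was -0.79, against -0.16 for all genes. Col8a1 was 8.46-fold lower with the mutant. Col11a1 was 6.06-fold lower, Col16a1 4.34-fold, Col18a1 at least 4.08-fold, Col14a1 at least 2.94-fold and Col5a1 2.63-fold. With the mean over probe sets Col14a1 was at a log2 ratio of -0.90, under 2-fold. Col3a1 was not called, at least 1.69-fold lower, with 170.0 on GFP FSH and 82.0, under the floor, on the mutant array. With the floor at the 25th percentile its log2 ratio was -1.05, past 2-fold, 8 genes were higher and the median of the 36 measured genes was 0.091, above 0. The higher gene was Col24a1, a fibrillar collagen of developing bone, with signals of 57.8, 64.2, 79.3 and 237.9 on the vehicle, FSH, FOXOA3 and mutant arrays. It was above the floor on the last array alone and at least 2.37-fold higher.

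FOXOA3-mDBD FSH against GFP vehicle, which leaves the GFP FSH array out but crosses the spike level, had 12 of 17 collagen genes lower and 1 higher, against 22.5% and 13.0% of 9861 genes. Its median was -1.59, against -0.17 for all genes. All 5 network genes measured were lower, but with median centring Col4a4 was at -0.91 and Col16a1 at -0.90, under 2-fold, and 10 collagen genes were lower. With the floor at the 75th percentile Col4a1 was known only as a bound, at -0.03. Another probe set of Col4a1 gave a log2 ratio of -0.67, under 2-fold, and the mean over its probe sets -1.09. The mean over probe sets put Col12a1 at -0.97. Col3a1 was at least 25.9-fold lower, Col11a1 25.6-fold, Col14a1 at least 12.3-fold, Col8a1 8.86-fold and Col12a1 7.48-fold.

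Set directly against each other, FOXOA3 FSH had 8 of 19 collagen genes at least 2-fold above FOXOA3-mDBD FSH and 1 below, against 19.0% and 9.24% of 10092 genes. The median was 0.97, and 0.21 over all genes. Col3a1 was at least 75.2-fold higher, Col11a1 5.96-fold, Col8a1 5.61-fold, Col14a1 at least 3.82-fold, Col5a1 2.51-fold, Col1a2 at least 2.33-fold, Col12a1 2.24-fold and Col18a1 at least 2.02-fold, and Col24a1 was at least 2.37-fold lower. Col12a1 and Col18a1 were under 2-fold with median centring, at log2 ratios of 0.96 and 0.81, with quantile normalization, at 0.94 and 0.86, and with the mean over probe sets, at 0.39 and 0.49. The last setting also put Col1a2 under 2-fold, at 0.61. The counts of higher genes were 6, 7 and 6 in these settings. The remaining 5 of the 20 genes, Col15a1, Col22a1, Col23a1, Col25a1 and Col27a1, did not pass 143.8 on any array and were not called in any comparison. Nearly all their ratios are bounds, and with the floor at the 25th percentile some passed 2-fold, such as Col15a1, at a log2 ratio of 2.17 for FOXOA3 FSH against the mutant, and Col25a1, at 2.20 for the mutant against GFP vehicle.

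Some genes had further probe sets above the floor, which read the same RNA and are not replicates of a condition. For GFP FSH against GFP vehicle, 8 such probe sets of 7 genes all had the sign of the chosen one, with a median absolute difference of 0.50 on the log2 scale. For FOXOA3 FSH against GFP FSH it was 6 of 6, with a median difference of 0.37. The largest, 0.85, was for Col14a1, whose other probe set gave a log2 ratio of 1.22, past 2-fold, where the brightest gave 0.38. For FOXOA3-mDBD FSH against GFP FSH it was 5 of 6, but with a median difference of 1.29. For FOXOA3 FSH against FOXOA3-mDBD FSH it was 4 of 6, the exceptions being Col4a1, at a log2 ratio of -0.18, and Col18a1, at -0.03, a bound. For FOXOA3 FSH against GFP vehicle it was 6 of 7, and for FOXOA3-mDBD FSH against GFP vehicle 7 of 8. The largest difference there, 3.72, was for a Col11a1 probe set with 194.9 on GFP vehicle and 3.7 on the mutant array. Its ratio of -0.96 is a bound, so this difference does not show that the probe sets disagree. In the comparison of the mutant with GFP FSH the exception was Col5a2, whose other probe set had signals of 5612, 1408, 2468 and 648.2 on the vehicle, FSH, FOXOA3 and mutant arrays. It gave a log2 ratio of -1.12 for the mutant against GFP FSH, where the brightest probe set gave 0.25. The further probe set of Col18a1 stood at 116.0 on the FSH array and 102.9 on the mutant array, a log2 ratio of -0.17, where the brightest gave -2.03. Col3a1, Col8a1 and Col16a1 had 1 probe set each, so that this comparison could not be made for them.

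**Figure D3:**
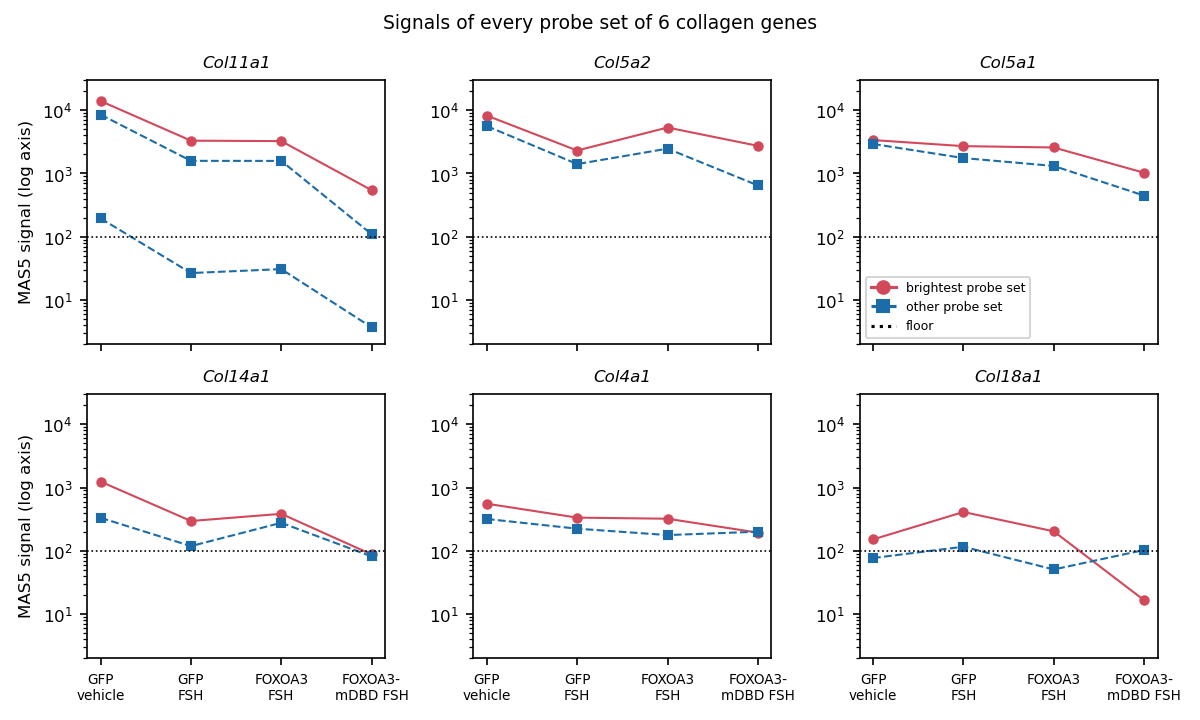
Signals of every probe set of 6 collagen genes on the 4 arrays, on a log axis. Red circles are the brightest probe set, blue squares the others, the dotted line is the floor and lines only join the points of a probe set. The Col11a1 probe sets keep the same order over the arrays except for GFP FSH and FOXOA3 FSH, which are nearly equal, and those of Col5a2 and Col18a1 part on FOXOA3-mDBD FSH.

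Chains that join in 1 molecule, and genes that lie side by side, were set next to each other. In RefSeq's list of protein-coding genes, Col4a1 and Col4a2 are neighbours on chromosome 16, with annotated starts 77 bases apart on opposite strands. Their ratios with FSH were -0.73 and -1.07 on the log2 scale, and for FOXOA3 FSH against GFP FSH -0.06 and 0.47. Col3a1 and Col5a2 are neighbours on chromosome 9. Both were lower with FSH and higher with FOXOA3, by 15.3-fold and 3.56-fold and by 44.4-fold and 2.31-fold. The type V partners Col5a1 and Col5a2 differed, with FSH ratios of -0.32 and -1.83 and FOXOA3 ratios of -0.07 and 1.21.

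RefSeq promoter sequences (assembly GRCr8, 250 bases before to 50 after the annotated start) were matched for 32 of the 41 genes, 15 of them above the floor. Col3a1 and Col12a1 had no entry. Shown here are those of Col1a2 and Col5a2, which were higher with FOXOA3, and of Col11a1, which had nearly equal signals on GFP FSH and FOXOA3 FSH. Each is written 5′ to 3′ on the strand of its gene, and capitals mark every match to the 4 motifs searched on both strands: the forkhead consensus GTAAACA, the CCAAT box, the TATA box TATAAA and the GC box GGGCGG.
Col1a2 (chr4:33518307-33518606, plus strand): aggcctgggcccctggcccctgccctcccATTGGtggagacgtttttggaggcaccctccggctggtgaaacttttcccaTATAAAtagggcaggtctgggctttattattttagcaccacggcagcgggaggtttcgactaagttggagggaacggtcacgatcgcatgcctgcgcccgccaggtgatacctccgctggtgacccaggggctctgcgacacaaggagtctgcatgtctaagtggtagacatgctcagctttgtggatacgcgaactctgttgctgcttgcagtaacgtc
Col5a2 (chr9:55090102-55090401, minus strand): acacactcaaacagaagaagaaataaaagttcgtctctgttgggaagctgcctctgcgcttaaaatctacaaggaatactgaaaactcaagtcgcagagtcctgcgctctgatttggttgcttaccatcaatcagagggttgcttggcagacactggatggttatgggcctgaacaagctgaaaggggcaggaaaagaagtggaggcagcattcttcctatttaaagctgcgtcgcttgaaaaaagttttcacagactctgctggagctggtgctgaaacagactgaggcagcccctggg
Col11a1 (chr2:204508886-204509185, plus strand): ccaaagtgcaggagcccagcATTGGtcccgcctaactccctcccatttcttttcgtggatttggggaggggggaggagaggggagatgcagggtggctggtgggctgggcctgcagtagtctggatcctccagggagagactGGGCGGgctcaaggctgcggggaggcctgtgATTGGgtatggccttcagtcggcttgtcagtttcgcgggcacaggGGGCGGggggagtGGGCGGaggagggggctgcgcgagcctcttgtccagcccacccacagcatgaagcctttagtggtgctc

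The forkhead letters were in none of the 32 collagen windows, and in 3.76% of all 27457 promoters of that length. This says only that these letters are not in these windows. The GC box was in 11 of the 15 windows of genes above the floor, and in 34.9% of all promoters, the CCAAT box in 4 of 15 and 37.7%, and the TATA box in 1 of 15 and 14.3%. The Col1a2 window held a CCAAT box on the other strand at base -221 and a TATA box at -170 from the annotated start, Col11a1 held 3 GC boxes at -108, -32 and -19 and 2 CCAAT boxes at -230 and -77, and Col5a2 held none of the 4 motifs. Of the Col4a1 and Col4a2 windows, which share 176 bases, each held CCAAT and GC boxes. A match is a description of letters, not a site in use.

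Other genes of the collagen pathway were read from lists of 71 genes, of which 54 were named on the array. Pooled, 4 of 46 measured genes were 2-fold higher and 9 lower with FSH, 6 of 45 were higher and 6 lower for FOXOA3 FSH against GFP FSH, and 3 of 43 were higher and 21 lower for FOXOA3-mDBD FSH against GFP FSH. The pooled medians were -0.04, -0.34 and -0.98. In these comparisons, in the same order, 6.84%, 11.1% and 12.5% of all genes were higher and 11.1%, 6.99% and 19.1% lower.

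Enzymes that hydroxylate and glycosylate collagen had 1 of 12 higher and 1 lower with FSH. The lower one was P4ha3, a prolyl 4-hydroxylase subunit, with 817.9 on the vehicle array and 98.8 on the FSH array, at least 8.14-fold. The higher one was P3h4, a partner of lysyl hydroxylation in the endoplasmic reticulum, at 1027 and 2805, 2.73-fold. For FOXOA3 FSH against GFP FSH, 2 of 12 were lower and 0 higher, P3h1, a prolyl 3-hydroxylase, by 2.76-fold and P3h4 by 2.26-fold. With FOXOA3-mDBD, 9 of 11 were lower than on GFP FSH and 0 higher, with a median of -1.56, including P3h4 by 8.66-fold, P3h1 by 6.90-fold and the lysyl hydroxylase Plod1 by 5.38-fold. Folding and secretion genes had 2 of 10 higher and 1 lower with FSH, 1 of 11 higher and 3 lower with FOXOA3, and 1 of 10 higher and 6 lower with FOXOA3-mDBD. Tent5a, a poly(A) polymerase, was the member that was lower with FSH, from 2287 to 462.6, and higher on FOXOA3 FSH at 4006, 8.66-fold above GFP FSH. It was also 4.70-fold above GFP FSH on the mutant array, at 2172. Hspa5, the chaperone BiP, and Fkbp14, a prolyl isomerase, were 2.59-fold and 2.44-fold lower with FOXOA3.

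Of the procollagen processing and cross-linking genes, 4 were measured with FSH. Lox, the lysyl oxidase that starts cross-links between chains, had signals of 14022 on the vehicle array, 1656 on the FSH array, 10218 on the FOXOA3 array and 899.0 on the mutant array. It was high and low on the same arrays as Col3a1, 8.47-fold lower with FSH and 6.17-fold higher with FOXOA3. Pcolce, an enhancer of C-proteinase, was 1.18-fold and 1.91-fold lower in those comparisons, and Bmp1, the C-proteinase itself, was 1.18-fold lower and 1.26-fold higher.

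Collagen receptors had 1 of 6 higher and 2 lower with FSH. Ddr1, a receptor tyrosine kinase for collagen, had signals of 864.2 on the vehicle array, 213.7 on the FSH array, 752.5 on the FOXOA3 array and 192.4 on the mutant array, 4.04-fold lower with FSH and 3.52-fold higher with FOXOA3. Its relative Ddr2 ran the other way, 3.30-fold higher and then 2.98-fold lower. Itgb1, the shared beta subunit of collagen-binding integrins, stayed within 1.14-fold of GFP vehicle on FOXOA3 FSH. Of the genes of transforming growth factor beta signalling, 4 of 14 were lower and 0 higher with FSH, and 3 of 13 higher and 0 lower for FOXOA3 FSH against GFP FSH. The ligand Tgfb2 was 9.79-fold lower with FSH and 3.42-fold higher with FOXOA3, the matricellular target Ccn2 3.02-fold lower and 2.34-fold higher, and the latency-binding protein Ltbp1 1.45-fold lower and 2.78-fold higher. For the mutant against GFP FSH, 2 of 13 genes of this list were higher and 2 lower, with a median log2 ratio of -0.06. Tgfb2 was also higher there, by 2.05-fold, and Ccn2 by 1.72-fold, but Ltbp1 was lower, at a log2 ratio of -1.001. Smad7, an inhibitory member of the list, was 5.29-fold higher with the mutant and differed by 1.02-fold with FOXOA3.

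**Figure D4:**
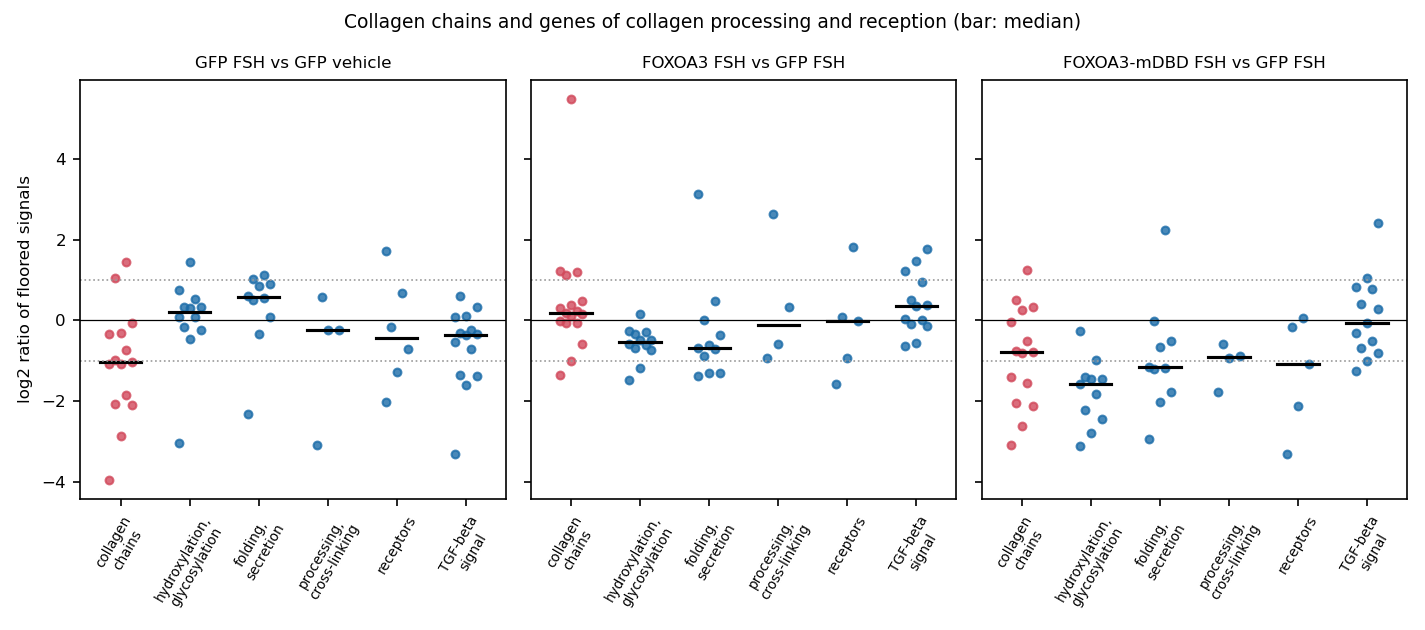
Log2 ratios of floored signals for the measured collagen chains (red) and for 5 lists of pathway genes (blue) in 3 comparisons that share the GFP FSH array. Each point is a gene, bars are medians and dotted lines mark 2-fold. The collagen median is -1.02 with FSH, and in the FOXOA3-mDBD comparison the hydroxylation list has a median of -1.56.

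Markers of cells that could be present beside granulosa cells were read on the same arrays. In bulk RNA, fewer cells of a type and less RNA per cell cannot be told apart. All 8 granulosa markers named on the array were above the floor on at least 1 array, with Cyp19a1, the aromatase, at 35.0 and under it on GFP vehicle. They had summed signals of 32182, 92768, 39192 and 25061 on the vehicle, FSH, FOXOA3 and mutant arrays. Of these 8, 6 were 2-fold higher with FSH, where 6.84% of all genes were, so the sum is not a measure of granulosa content. Inha, at 29569, and Inhba, at 25593, made the largest parts of it on the FSH array. Foxl2 did not follow the sum, at 5546, 3536, 4297 and 994.1 on these arrays. The theca markers Cyp17a1 and Insl3 were under the floor on every array, and 1 of 3 theca markers passed it. Of 7 fibroblast and stroma markers, 3 passed the floor and Pdgfrb, Thy1, Tcf21 and Dpt did not on any array. Their sums were 1096, 890.3, 12828.5 and 471.4, and on FOXOA3 FSH the proteoglycan Dcn alone made 12504 of it. All 5 smooth muscle markers passed the floor on at least 1 array, with sums of 13269.5, 1250.1, 4170 and 1053. GFP vehicle was highest and FOXOA3 FSH next, as for Col5a2, Col12a1 and Lox. Tagln, at 9167, and Acta2, smooth muscle actin, at 3711, made most of the sum on GFP vehicle. Cnn1 and Myh11 had this order too, but did not pass 179.8 on any array. Des went another way, lowest on GFP vehicle at 36.8 and highest on FOXOA3 FSH at 122.7. Acta2 was 19.3-fold lower with FSH and 3.09-fold higher with FOXOA3. Of endothelial markers 2 of 5 passed the floor, with Pecam1, Vwf and Emcn under it on every array, with sums of 485.8, 306.1, 472.9 and 587.2. Of leukocyte markers 2 of 5 passed, with Ptprc, Cd68 and Cd3e under it, and their sums of 669.7, 771.2, 1563 and 744.7 were highest on FOXOA3 FSH, where Lyz2 alone made 1266 of it. Csf1r, the other marker above the floor, was highest on GFP vehicle, at 177.3 against 125.6 on FOXOA3 FSH. Surface epithelium had 1 of 3 markers above the floor, with Krt19 and Msln under it, and sums of 1434.5, 526.2, 628.7 and 247.3. Wt1 alone made 1314.9, 464.6, 555.4 and 228.0 of these, so the sums follow 1 gene and are not a measure of surface epithelium. Oocyte markers had 3 of 5, with Zp1 and Bmp15 under it, and sums between 442.7 on the vehicle array and 1200 on the mutant array. The part of such cells in the collagen signals was not tested.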

How the data were processed

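The authors deposited linear MAS5 intensity, a value for each probe set on each of 4 arrays, per the submitters' processing notes. The MAS5 version is not given in the sources used here. This algorithm removes mismatch signal, which makes ratios of dim probe sets noisy. The 2% trimmed mean was 500.0 on every array, so no scaling was added, and any difference in total RNA per cell is hidden. Of 31099 probe sets, 57 were controls, 20826 had 1 gene symbol, 436 several and 9780 none. Symbols came from the platform annotation, and all 41 collagen identifiers matched RefSeq with the same symbol. Signals were floored at the pooled median, 100.5, and log2 ratios were taken for 6 comparisons, of which those that share an array are not independent. With 1 array per group no test was possible, and the number of arrays limits the precision. The steps were tested on simulated data. Alternatives were floors at the 25th and 75th percentiles (27.4 and 542.5), quantile normalization, median centring and the mean over probe sets. Every collagen gene was accounted for. Genes 2-fold apart in any comparison were described by their signals, and up to 6 genes per pathway list were eligible to be named, by their largest ratio with FSH or FOXOA3. The members and lists were chosen with earlier results of these data known. Python 3.11.15, numpy 2.4.6, pandas 2.3.3 and matplotlib 3.10.9 were used.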

Additional observations from a re-analysis of the deposited data

How the results depend on the processing

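The Col3a1 log2 ratio of FOXOA3 FSH against GFP FSH was 5.47, and 5.57 under quantile normalization. The 25th percentile floor and the mean over probe sets could not change it, since both signals were above the main floor and Col3a1 has 1 probe set. Centring only subtracts the median of all genes, and gave 5.43. At the 75th percentile floor GFP FSH was under the floor, and the ratio was at least 3.80. No named collagen gene that was 2-fold apart changed its direction under any alternative in which it was measured. Most alternatives could not have turned a direction. A change of floor keeps the order of 2 signals, and centring moved ratios by at most 0.21 on the log2 scale. The mean over probe sets leaves genes with 1 probe set as they were. Quantile normalization, and that mean for genes with further probe sets above the floor, could have done so. The choice of floor moved counts, since 33 collagen genes were measured with FSH at the 25th percentile and 10 at the 75th. With the 25th percentile floor, 14 genes were lower with FSH, 9 were higher for FOXOA3 FSH against GFP FSH, 8 higher for FOXOA3-mDBD FSH against GFP FSH, 5 lower for FOXOA3 FSH against FOXOA3-mDBD FSH, 2 higher for FOXOA3 FSH against GFP vehicle and 5 higher for FOXOA3-mDBD FSH against GFP vehicle. The median for the mutant against GFP FSH turned to 0.091, and against GFP vehicle it was -0.56. With the 75th percentile floor, 1 gene was higher with FSH. FOXOA3 FSH against GFP FSH had 2 higher, 1 lower and a median of -0.023, a turn of sign from 0.18. FOXOA3-mDBD FSH had 0 higher and a median of -1.47 against GFP FSH, and 0 higher against GFP vehicle. FOXOA3 FSH against the mutant had 4 higher and 0 lower. With the mean over probe sets, 1 gene was higher with FSH, Col18a1 being lost, FOXOA3 FSH against GFP FSH had 2 higher and 1 lower, and FOXOA3 FSH against GFP vehicle had 2 lower. Fewer or more genes were measured at other floors. In the mean over probe sets, those under the floor on both arrays count as unchanged and make the ratio of a gene smaller. The smaller ratios of Col12a1, and of Col1a2 for FOXOA3 FSH against GFP FSH or the mutant, were thus fixed in advance. The cause of the other shifts was not tested. Over all genes, the split for FOXOA3 FSH against GFP FSH went from 1105 higher and 695 lower to 919 and 820 under quantile normalization. For FOXOA3 FSH against the mutant it went from 1913 and 932 to 1315 and 1319 under centring, and for the mutant against GFP FSH from 1221 and 1865 to 1517 and 1465. No paired analysis was possible because each group has 1 array.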
